A study of Homo sapiens with 6 samples.

Results

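Membrane serine proteases of epithelia and the Kunitz inhibitors that hold them in check were described on 6 expression arrays of HCC-LM3 cells, 3 from control-infected cultures (shNon) and 3 from cultures with an shRNA against ASPP2 (shASPP2). The members were taken by gene symbol. They are the 7 proteases TMPRSS2, TMPRSS3, TMPRSS4, TMPRSS6, ST14, HPN and PRSS8 and the 2 inhibitors SPINT1 and SPINT2. The array's own annotation gives these 9 genes 18 of its 45033 features, where a feature is a set of probes designed to 1 transcript and reported as 1 intensity. The symbols were proposed with the difference between shASPP2 and shNon already known from these same arrays. The group differences of the members are therefore given as a description, with no p-value of their own.

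HCC-LM3 is a human hepatocellular carcinoma line. Both groups carried a lentivirus, Lv-shNon or Lv-shASPP2, and separate cultures were harvested after a week of infection, per the labels. The ASPP2 knockdown thus rests on 1 hairpin construct in 1 cell line. Whether the infected cells were a pool or were selected is not given in the sources used here. ASPP2, encoded by TP53BP2, binds p53 and polarity proteins.

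Most of the proteases are type II transmembrane enzymes, anchored near their N-terminus with a trypsin-like domain outside the cell, whereas prostasin (PRSS8) is held by a lipid anchor. They are made as inactive precursors and are switched on by cleavage, often by one another or by themselves. SPINT1 and SPINT2 encode HAI-1 and HAI-2, membrane-bound inhibitors whose Kunitz domains block matriptase (ST14), hepsin (HPN) and prostasin. Known substrates include the precursor of hepatocyte growth factor and channels or receptors at the epithelial surface. In liver, hepsin is abundant and matriptase-2 (TMPRSS6) cleaves hemojuvelin, which lowers hepcidin.

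The promoter of SPINT1 is shown because SPINT1 was the inhibitor with a clear signal and lower intensities after knockdown. RefSeq's promoter table (GRCh38.p14) held 3 of the 9 members, SPINT1, HPN and TMPRSS3, with 4 windows in all. The SPINT1 window that ends at the annotated gene start is given 5′ to 3′ on the plus strand, chr15:40843798-40844047, the 250 bases before the start. Capitals mark GC boxes, GGGCGG on either strand.

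SPINT1: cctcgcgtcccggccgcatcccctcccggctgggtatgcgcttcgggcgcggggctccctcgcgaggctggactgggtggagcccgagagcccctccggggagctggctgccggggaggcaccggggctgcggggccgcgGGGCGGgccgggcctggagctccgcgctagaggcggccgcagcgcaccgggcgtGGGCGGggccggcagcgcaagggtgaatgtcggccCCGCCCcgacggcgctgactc

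This window holds 3 GC boxes, beginning 110, 56 and 21 bases before the start, and its GC content is 80.4%, against a median of 58% over all 35116 windows of the same length. A GC box occurs in 42.6% of those windows. The window has no E-box of the form CAGGTG on either strand, the sequence bound by repressors of E-cadherin, and it has no TATA box (TATAAA). Of all windows 17.5% hold that E-box and 10.7% that TATA box. The second SPINT1 window, at a later start site, has 1 such E-box and no GC box, and the HPN window has 2 of each. The TMPRSS3 window has none of the 3 motifs. A match of letters is a description of the sequence and not a binding site.

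The deposited intensities were alike in overall signal, but processing by RMA equalises arrays, so this is no check of the arrays. Median feature intensity lay between 111 and 122, and the level of 2508 random-sequence probes, which match no transcript, averaged 32.6 ± 0.752 on the shNon arrays and 30.6 ± 0.170 on the shASPP2 arrays (SD, n = 3). A feature over 2 times that level is called clearly detected here. The target was lower in the knockdown on both of its features. The brighter TP53BP2 feature read 332, 488 and 452 in shNon and 228, 216 and 147 in shASPP2, a log2 difference of -1.11 (SE 0.249; limma adjusted p = 0.203 over all features; two-sided exact permutation p = 0.1, which is the lowest that 3 against 3 can give). The other feature had -1.41 (SE 0.209; limma adjusted p = 0.0991). With trend and robust variance both features were past the threshold, with adjusted p-values of 0.0225 and 0.00827 (0.0225 to 0.589 and 0.00827 to 0.417 over all settings). Of 8 hepatocyte markers 4 were clearly detected. FGB (3727 ± 293 in shNon and 1128 ± 175 in shASPP2) and HNF4A (2562 ± 386 and 3794 ± 605) were far above the random-probe level and differed in opposite directions. ALB read 86.5 ± 5.74 in shNon, and SERPINA1, at 26.0 ± 2.75, was not clearly detected. The labelled cell type was thus borne out by some of its defining markers and not by others. Of 4 simple epithelial markers KRT8, KRT18 and CDH1 were clearly detected and EPCAM was not, and their summed level was 15031 to 16623 in shNon and 19812 to 23497 in shASPP2. That sum is carried by KRT8 (8766 ± 733 and 14332 ± 1678) and KRT18, whereas CDH1, encoding E-cadherin, read 613 ± 72.7 and 200 ± 32.9, a log2 difference of -1.62. The summed level of 4 endothelial markers was 1982 to 2089 in shNon and 958 to 1191 in shASPP2, with 2 of 4 clearly detected, VWF and KDR not, and PECAM1 making up most of the sum. The summed level of 4 cholangiocyte markers was 383 to 1411 in shNon and 1709 to 2209 in shASPP2, with 3 of 4 clearly detected and CFTR not. KRT7 makes up most of that sum (832 ± 559 and 1839 ± 284), and SOX9 had the opposite direction (98.5 ± 14.4 and 42.8 ± 10.5, log2 -1.22). The 8 hepatocyte markers summed to 5951 to 7422 in shNon and 4768 to 5549 in shASPP2, a lower sum carried by FGB. HNF4A (log2 0.56) and AFP (0.72) had differences above 0, but AFP was dim, at 43.6 ± 16.2 in shNon and 70.3 ± 17.6 in shASPP2. The 4 leukocyte markers summed to 2714 to 3613 and 3612 to 4165, ranges that met at their ends, mostly from CD68, with PTPRC and CD3E not clearly detected. The 5 fibroblast and stellate markers (401 to 552 and 436 to 580, 3 of 5 clearly detected) and the 4 prostate and gut markers (2387 to 3555 and 2026 to 2459, 4 of 4) overlapped between the groups. The part of these shifts in the values below was not tested.

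Of the 18 features 7 (38.9%) were clearly detected in the mean of at least 1 group, 6 (33.3%) in both groups and 5 (27.8%) on all 6 arrays. Over all 45033 features the shares were 62.9%, 56.9% and 50.8%. The 5 belong to TMPRSS2, SPINT1 (3 features) and SPINT2. The other 2 belong to TMPRSS6 and TMPRSS3. ST14, HPN, PRSS8 and every TMPRSS4 feature were not clearly detected in either group, so for them a difference between groups is a difference between readings close to unspecific signal. The array cannot show from this that their transcripts are absent.

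**Figure D1:**
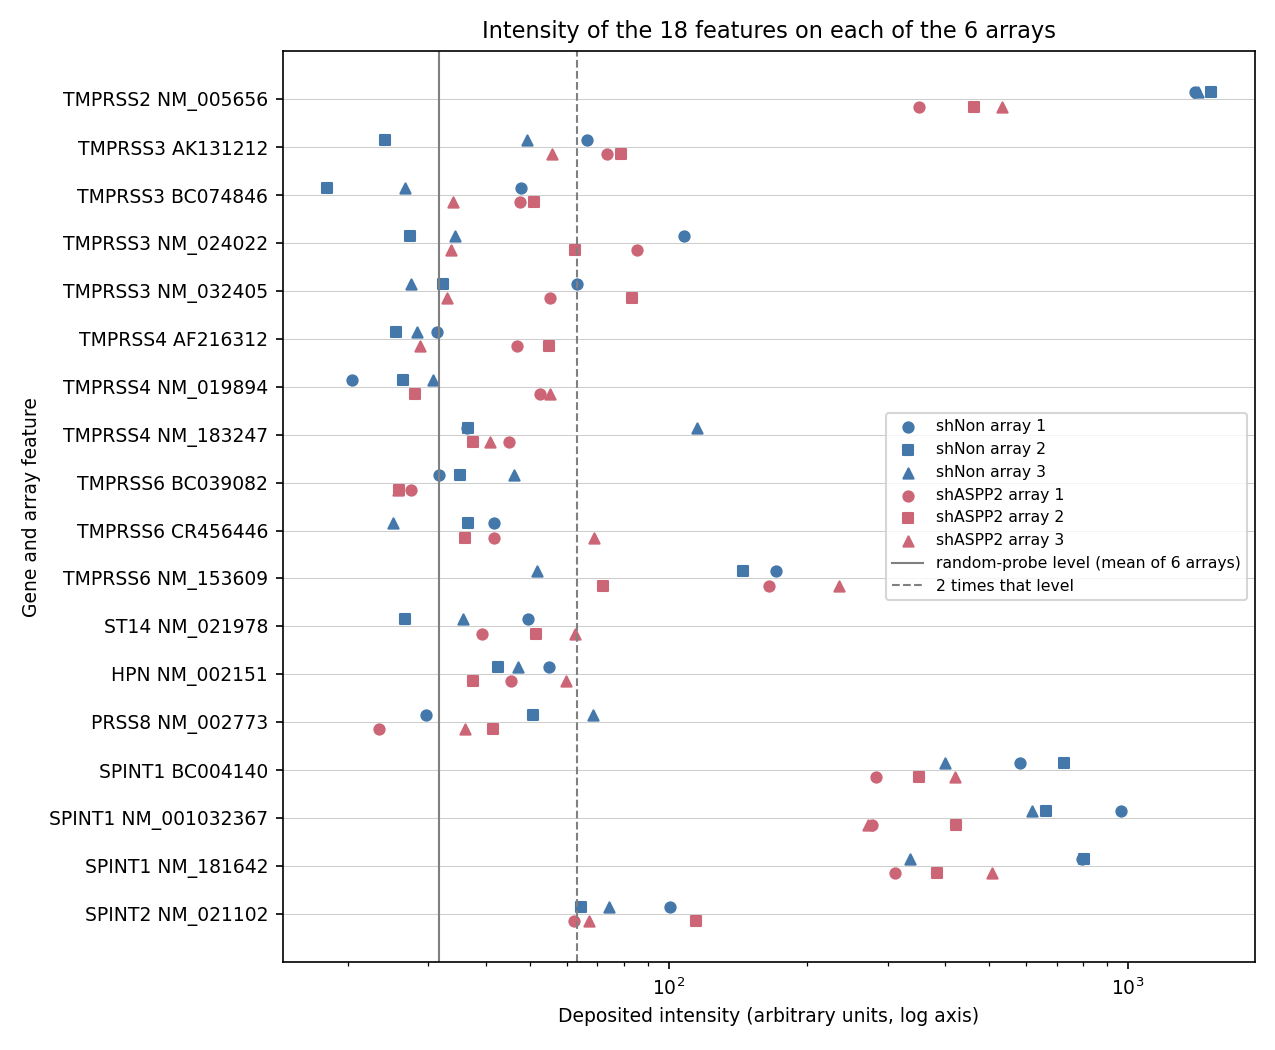
Deposited intensity (log axis, arbitrary units) of each of the 18 features on the 3 shNon arrays (blue) and the 3 shASPP2 arrays (red), with array number by marker shape. The solid line is the mean random-probe level and the dashed line is 2 times that level. TMPRSS2 and the 3 SPINT1 features lie far to the right of the dashed line, and most other features lie near the solid line.

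TMPRSS2 had the largest difference among the proteases, and at 44.4 times the random-probe level in shNon it was far from unspecific signal. It encodes a trypsin-like protease of prostate, gut and airway epithelium that also primes the surface glycoproteins of some respiratory viruses. Its single feature (chromosome 21, 41758350 to 41801948, hg18) read 1398, 1515 and 1424 in shNon and 351, 463 and 533 in shASPP2. The 3 shNon arrays lay within a narrow range and all 3 shASPP2 arrays lay far below them. The means were 1446 ± 61.5 and 449 ± 91.9 (SD, n = 3), and the log2 difference was -1.71 (SE 0.206), so that 30.6% of the shNon signal was left. Only 33 of the 45033 features had a lower log2 difference.

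A second array feature lies inside the TMPRSS2 span and was found after the values were seen. AK123948, which the array annotation gives no gene name, covers chromosome 21, 41758354 to 41760885 (hg18), the stretch of 2532 bases that begins 4 bases after the lower-coordinate end of TMPRSS2. It read 1050, 1097 and 975 in shNon and 234, 385 and 449 in shASPP2. The groups did not overlap, and the log2 difference was -1.60 (SE 0.264). Once group means were subtracted, its log2 values correlated with those of the TMPRSS2 feature at r = 0.98 over the 6 arrays, which share their labelling and hybridisation. The files give no strand and no probe sequences for it, so a TMPRSS2 transcript and another transcript of that stretch cannot be told apart. Similar unnamed features at TMPRSS6 (AK055306, log2 difference -0.18) and SPINT2 (AK127479, -0.28) had groups that overlapped.

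Clearly detected features around TMPRSS2 gave differences closer to 0 than its own. Within 250000 bases on either side, 14 features of 6 genes did not overlap its span, and 9 of them were clearly detected. Their log2 differences ran from -0.83 for FAM3B to 0.40 for RIPK4, with a median of 0.02. Around SPINT1 this was not so for each of its features. There 21 of 26 features, of 13 genes, were clearly detected, with log2 differences from -0.91 for GCHFR to 0.34 for VPS18 and a median of -0.16. GCHFR thus had a lower value than 2 of the 3 SPINT1 features described further on.

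TMPRSS3, a protease known from inherited deafness, lies on the same chromosome and had 4 features. AK131212, which was clearly detected in shASPP2 and not in shNon, read 66.5, 24.1 and 49.1 in shNon and 73.6, 78.9 and 55.7 in shASPP2. The groups overlapped, and shNon array 2 was the lowest. Its log2 difference was 0.68 (SE 0.374), and those of BC074846, NM_032405 and NM_024022 were 0.61, 0.48 and 0.27, all with overlapping groups. Without shNon array 2 the difference was 0.27 for AK131212, 0.29 for BC074846 and -0.11 for NM_024022, and that of NM_032405 was 0.16 without shASPP2 array 2. NM_024022 also had -0.03 without shASPP2 array 1. Without shNon array 1 the differences rose, to 1.00 for AK131212, 0.99 for BC074846, 0.88 for NM_024022 and 0.84 for NM_032405. Deviations from the group means went together across the 4 features, with r from 0.62 to 0.95 for the 6 pairs over 6 arrays. These features read the same gene and are not independent.

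TMPRSS4, a protease studied in carcinomas, was not clearly detected in either group, with group means of its 3 features from 0.794 to 1.93 times the random-probe level. AF216312 read 31.3, 25.5 and 28.3 in shNon and 46.8, 54.9 and 28.7 in shASPP2, with the groups overlapping. NM_019894 had a log2 difference of 0.76 (SE 0.307), also with overlap. The third feature, NM_183247, read 36.5, 36.6 and 115 in shNon and 45.0, 37.5 and 40.9 in shASPP2, so that 1 shNon array stood above the rest. Its log2 difference of -0.38 was 0.17 without that array, shNon array 3, and -0.66 without shNon array 1. The array annotation also lists TMPRSS3 as an older name of TMPRSS4, and the features were assigned by their current symbol.

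TMPRSS6, the liver protease of iron control, gave no single reading across its 3 features. NM_153609, clearly detected in both groups, read 171, 145 and 51.7 in shNon and 166, 72.0 and 235 in shASPP2. Both groups had a low array and the groups overlapped, with a log2 difference of 0.38 (SE 0.567) that became -0.16 without shNon array 3. That difference was 0.86 without shASPP2 array 2. CR456446 had 0.48 and BC039082 -0.49 (SE 0.198). BC039082 read 31.7, 35.2 and 46.0 in shNon and 27.5, 25.9 and 25.7 in shASPP2, and its groups did not overlap, but every array was under 2 times the random-probe level. After group means were subtracted BC039082 went against NM_153609 (r = -0.69), whereas CR456446 went with it (r = 0.91).

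The matriptase, hepsin and prostasin genes were dim throughout. ST14, matriptase, the main target of HAI-1, read 49.4, 26.7 and 35.7 in shNon and 39.3, 51.5 and 62.5 in shASPP2, a log2 difference of 0.48 (SE 0.284) with overlapping groups. HPN, hepsin, read 54.8, 42.6 and 46.9 in shNon and 45.4, 37.5 and 59.9 in shASPP2. Its means of 48.1 ± 6.20 and 47.6 ± 11.4 (SD, n = 3) are 1.48 and 1.55 times the random-probe level. PRSS8, prostasin, read 29.6, 50.7 and 68.4 in shNon and 23.4, 41.4 and 36.0 in shASPP2, with a log2 difference of -0.52 (SE 0.355). The groups overlapped for each of these 3 genes. Leaving out 1 array moved ST14 to 0.26 (without shNon array 2) and PRSS8 to -0.24 (without shNon array 3). Without shNon array 1 ST14 had 0.70 and PRSS8 -0.85.

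Of the inhibitors, SPINT1 was clearly detected and lower after knockdown on each of its 3 features. NM_001032367 (chromosome 15, 38923934 to 38937145, hg18) read 967, 663 and 619 in shNon and 277, 422 and 271 in shASPP2. All 3 shASPP2 arrays were below all 3 shNon arrays, with means of 749 ± 190 and 323 ± 85.5 and a log2 difference of -1.21 (SE 0.264), which leaves 43.1% of the shNon signal.

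The other SPINT1 features showed less separation. BC004140 read 582, 728 and 401 in shNon and 284, 351 and 420 in shASPP2, a log2 difference of -0.67 (SE 0.271). NM_181642 read 797, 801 and 336 in shNon and 312, 384 and 507 in shASPP2, a log2 difference of -0.61 (SE 0.376). In both, shNon array 3 lay among the shASPP2 arrays. Without that array the differences were -0.91 and -1.02, and that of NM_001032367 was -1.34. NM_181642 had -0.40 without shNon array 1 or shNon array 2, and BC004140 had -0.48 without shNon array 2. The deviations of BC004140 and NM_181642 from their group means went together (r = 0.94), and those of NM_001032367 followed them less closely (r = 0.17 and 0.35, 6 arrays each). The 3 features cover nearly the same span of the gene, and which exons their probes read is not given in the sources used here.

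SPINT2, HAI-2, was clearly detected but dim and near a difference of 0. It read 101, 64.6 and 74.3 in shNon and 62.1, 115 and 67.2 in shASPP2. The groups overlapped fully, with means of 79.8 ± 18.6 and 81.3 ± 28.9 and a log2 difference of -0.0046 (SE 0.293).

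**Figure D2:**
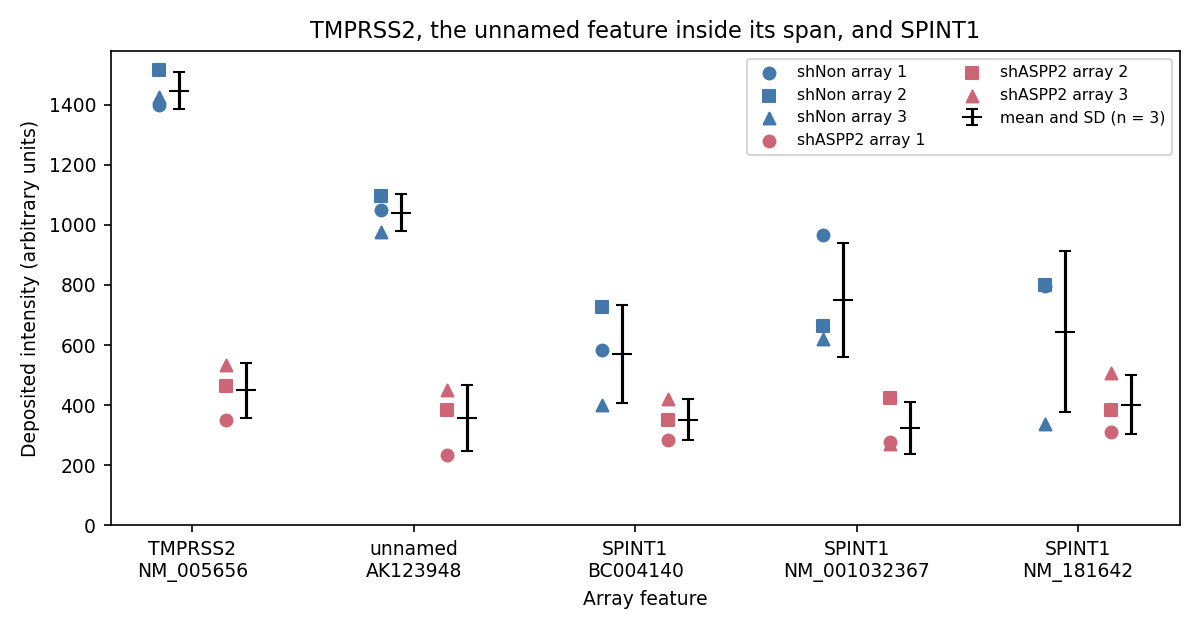
Deposited intensity (linear axis, arbitrary units) of the TMPRSS2 feature, the unnamed feature inside its span and the 3 SPINT1 features on each array, with the mean and SD of 3 arrays in black. The groups are separate for TMPRSS2, AK123948 and SPINT1 NM_001032367, and shNon array 3 sits among the shASPP2 arrays for the other 2 SPINT1 features.

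Set side by side, the 18 features did not move one way. Of the 14 protease features 5 were below 0 and 9 above. All 4 inhibitor features were below 0, but 3 of them read SPINT1. The other, SPINT2, was at -0.0046 and changed sign in 4 of 14 alternatives. Over all 45033 features 22015 were below 0 and 23018 above. The median log2 difference was 0.13 over the 18 features and 0.01 over all 45033 features. Groups that did not overlap occurred in 3 members, all lower in shASPP2 (TMPRSS2, TMPRSS6 BC039082 and SPINT1 NM_001032367). Over all features 18.6% had groups that did not overlap, 9.17% lower and 9.46% higher. Of these 3 members the first and the last were clearly detected. The members were proposed with this contrast known, so nothing is read from these counts or from the next one. Leaving out 1 array turned the difference or moved it by over 1.5 times in 13 of the 18 features. The other 5 were TMPRSS2, TMPRSS4 NM_019894, TMPRSS6 BC039082 and the SPINT1 features NM_001032367 and BC004140.

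In limma's fit over all features 1 of the 18 members, TMPRSS2, was past an adjusted p of 0.05, and it was lower. Over all features 0.138% passed, 0.0844% lower and 0.0533% higher. The count of members was 2 with trend and robust variance, which added SPINT1 NM_001032367. It was 0 with array weights, with 1 feature a gene, and without any 1 of the 6 arrays, although the log2 difference of TMPRSS2 stayed between -1.84 and -1.54 in those 6 fits.

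**Figure D3:**
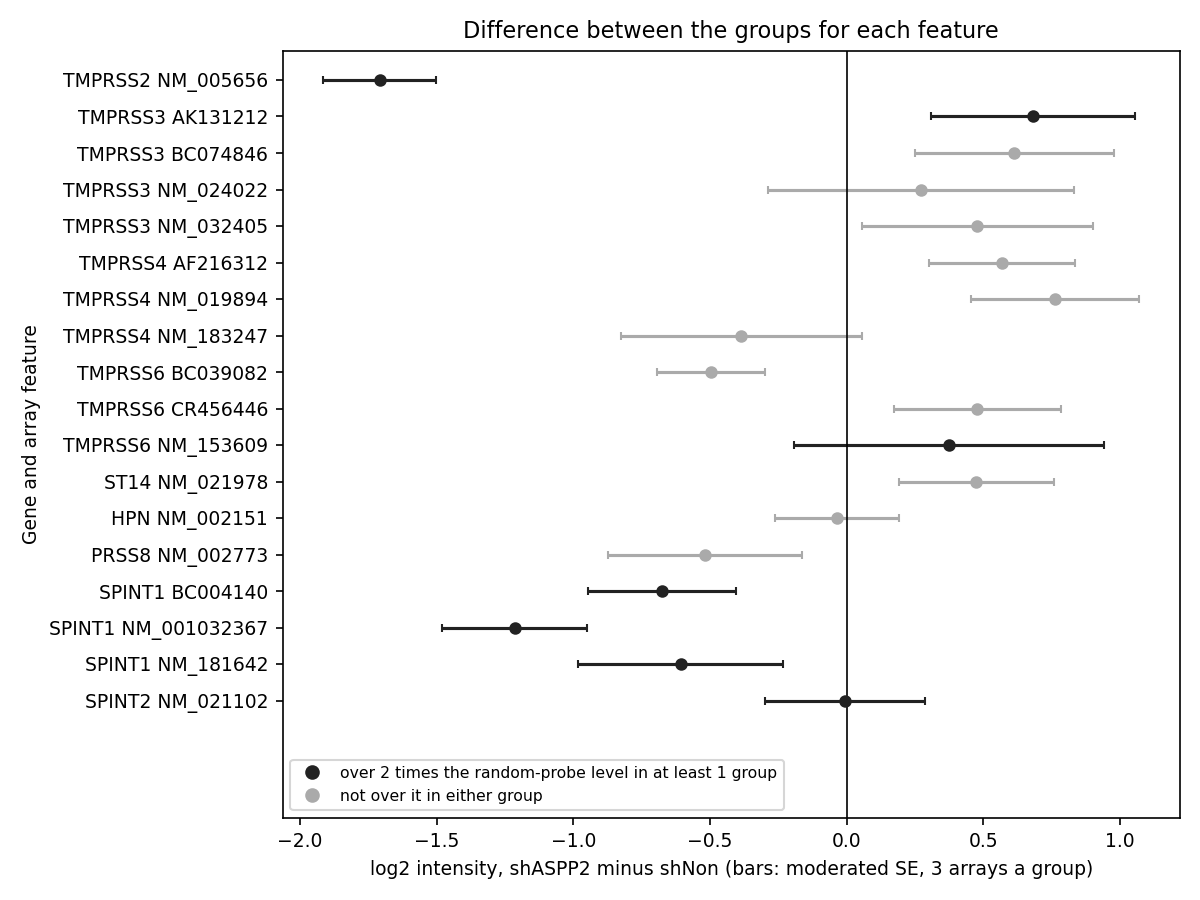
Log2 intensity in shASPP2 minus shNon for each of the 18 features (points) with limma's moderated SE (bars, 3 arrays a group). Black points were clearly detected in at least 1 group and grey points were not. TMPRSS2 at -1.71 and SPINT1 NM_001032367 at -1.21 are the lowest, and the highest value, 0.76, belongs to a grey TMPRSS4 feature.

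Genes that work with these enzymes were taken from a list arranged by role. Of its 53 genes 51 were on the array with 96 features, and 47 of these features were clearly detected in at least 1 group. None of the 96 features passed the limma test over all features (8 had an unadjusted p under 0.05), where 0.138% of all features passed and 11.4% had such a p. The median log2 difference of the 96 features was -0.10.

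The listed growth factors with their receptors, and the listed channels, receptors and surface substrates, showed no feature past the threshold. MET, the receptor of hepatocyte growth factor, read 30003 ± 4108 in shNon and 29842 ± 4509 in shASPP2, with a log2 difference of -0.01 (SE 0.200; limma adjusted p = 0.990). HGF itself was not clearly detected on any of its 3 features. MST1, encoding the related ligand MSP, had -0.48 (SE 0.365; limma adjusted p = 0.658) on NM_020998 and -0.14 without shNon array 3. The array annotation places that feature on chromosome 3 and the other MST1 feature, BC044862, on chromosome 1. BC044862 was not clearly detected and had -0.13. PLAU, urokinase, whose precursor is a substrate of matriptase and hepsin, read 640, 674 and 580 in shNon and 366, 451 and 473 in shASPP2. Its groups did not overlap, and the log2 difference was -0.56 (SE 0.184; limma adjusted p = 0.338). Its other feature, BC013575, read 514, 523 and 578 in shNon and 328, 524 and 352 in shASPP2, with groups that overlapped and a log2 difference of -0.45. CDCP1, a surface protein cleaved by matriptase, had 0.58 (SE 0.272; limma adjusted p = 0.477) on AF468010, with groups that overlapped. Its feature NM_022842, also clearly detected, had 0.71 (limma adjusted p = 0.411), with groups that did not overlap. NM_178181 was not clearly detected and had 0.04.

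Around TMPRSS6, the hepcidin gene HAMP read 73.5, 57.0 and 66.3 in shNon and 181, 103 and 170 in shASPP2. Its shNon mean was only 2.01 times the random-probe level, and 4 of the 6 arrays were over 2 times that level. All 3 shASPP2 arrays were higher, and the log2 difference of 1.17 (SE 0.258) did not pass (limma adjusted p = 0.198, and 0.101 to 0.593 over 13 other settings). HJV, hemojuvelin, read 134, 32.9 and 40.5 in shNon and 29.7, 35.4 and 29.2 in shASPP2, so that its log2 difference of -0.84 (SE 0.494; limma adjusted p = 0.567) was -0.22 without shNon array 1. Only that array was over 2 times the random-probe level. The other HJV feature, NM_202004, was not clearly detected and had -0.07.

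Among other inhibitors SERPINE2, encoding protease nexin-1, a serpin that blocks prostasin and urokinase, had the smallest adjusted p of the list. It read 5562, 5095 and 4593 in shNon and 11751, 10718 and 10950 in shASPP2. The groups were far apart, with a log2 difference of 1.14 (SE 0.171; limma adjusted p = 0.0998). It passed when dim features were left out, by either rule (adjusted p = 0.0133 and 0.0389), and when trend and robust options were used (adjusted p = 6.86e-06). Its adjusted p reached 0.465 without shASPP2 array 3. SERPINA5, the protein C inhibitor, had -0.77 (SE 0.280; limma adjusted p = 0.375). Of the other Kunitz inhibitors TFPI2 had 0.70 (limma adjusted p = 0.457) and APLP2 -0.37 (limma adjusted p = 0.557). These were 0.38 without shNon array 2 and -0.24 without shASPP2 array 1.

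The other proteases, which the list placed in a type II transmembrane and a tethered class, were mostly dim. The label tethered is the list's own and was not checked for each gene. Of 12 further type II transmembrane proteases 3 were clearly detected on their brightest feature. TMPRSS5 had a log2 difference of -1.15 (SE 0.485; limma adjusted p = 0.435) and read 167, 57.6 and 46.3 in shNon against 40.6, 41.3 and 24.5 in shASPP2. Only shNon array 1 was over 2 times the random-probe level. The groups did not overlap, and without that array the difference was -0.58. TMPRSS7 had 0.46 (limma adjusted p = 0.742) and 0.15 without shNon array 3. PRSS27, a protease of squamous epithelium, read 147, 120 and 62.9 in shNon and 153, 155 and 300 in shASPP2. Its log2 difference was 0.89 (SE 0.393, limma adjusted p = 0.453), and its other feature had 0.28. Without shNon array 3 the first was 0.53. PRSS33 had -0.46 (limma adjusted p = 0.798), which turned to 0.13 without shNon array 1.

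**Figure D4:**
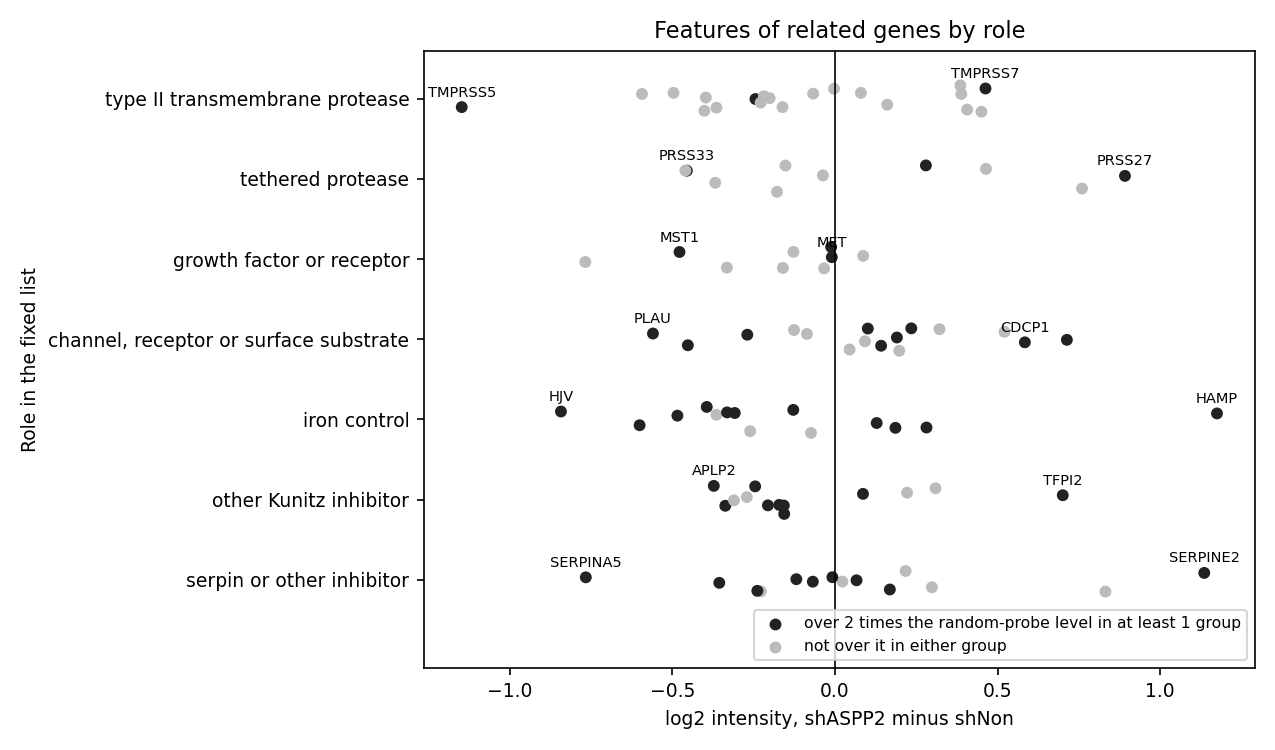
Log2 intensity in shASPP2 minus shNon for the 96 features of related genes, grouped by role, with small vertical shifts for legibility. Black points were clearly detected in at least 1 group and grey points were not. SERPINE2 at 1.14 and HAMP at 1.17 are the highest and TMPRSS5 at -1.15 the lowest, and none passed the limma test.

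For the 5 members with a clearly detected brightest feature, the gene whose deviations from the group means were most alike was looked up among 24800 to 24803 clearly detected features of other genes. These were LRCH4 for TMPRSS2, ZNF623 for TMPRSS3, SSBP1 for TMPRSS6, SPRR1A for SPINT1 and INPP4A for SPINT2, with r between 0.996 and 0.999 over 6 arrays. With so few arrays such values are common. Between 99 and 271 features had an r above 0.95 with each of these members. Within groups TMPRSS2 had r of 0.63 with SPINT1 BC004140, 0.02 with SPINT1 NM_001032367 and 0.47 with SPINT1 NM_181642.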

How the data were processed

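Each of the 6 RNA samples was hybridised to its own 1-colour (Cy3) NimbleGen array. The authors deposited 1 linear intensity per feature and sample. The submitters' processing notes name RMA, whose version and settings are not given in the sources read here. RMA in general removes background and equalises arrays, so that differences in total RNA per cell are hidden. The series' value table differed from the sample files in 0 cells. Of 45033 features 45031 summarise 3 probes, and positions are on hg18, per the file headers. The array annotation's own gene symbols chose the members. Related genes were matched through gene identifiers in a RefSeq table of GRCh38.p14, which named 38916 features, and PRSS41 and SPINT3 had no match. GRCh38 coordinates of the promoter were not converted.

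Log2 intensities were fitted with limma 3.58.1 (lmFit and eBayes) in R 4.3.3, two-sided, with Benjamini-Hochberg adjustment over all 45033 features, a threshold of 0.05 and no filter. The fit was tested on simulated data. Differences are shASPP2 minus shNon. The number of arrays, 3 a group, limits the precision. For the related genes, a difference given without 1 array is from the fit that shrank or turned it most. Other fits without 1 array widened each of these differences. The members, the list of related genes and the rules were chosen with earlier results of these data known. Of the related genes, the text names in each role up to 2 genes with the largest difference among those whose brightest feature was clearly detected, and others where a comparison needs them (HGF, chosen after its values were seen). Alternatives were cyclic loess or median centring, the value table, 1 feature a gene, the replicate block, array weights, robust variance with a trend, leaving out dim features by 2 rules, leaving out each array, and, for the members, subtracting the random-probe level with a floor of 1 before log2. Some markers of the cell type lists are not reported here, and the summed levels leave them out.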

Additional observations from a re-analysis of the deposited data

How the results depend on the processing

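Over all features 62 passed the test, against 405 above the median level, 136 over 2 times the random-probe level, 952 with trend and robust variance, 24 with 1 feature a gene and 0 to 17 without single arrays. Of the members 1 passed, against 2 with trend and robust variance, and 0 with array weights, with 1 feature a gene and without single arrays (0 to 0, with 2 to 7 of 18 members and 3317 to 5792 of 45033 features at an unadjusted p under 0.05 in limma, so nothing is read from the members' count). Of the related genes 0 features passed, against 1, SERPINE2, with either filter and with trend and robust variance. Fits with fewer arrays have less power by construction, and for the other shifts the cause was not tested. The target TP53BP2 passed with trend and robust variance (-1.11), and its other feature (-1.41) with that setting and with either filter.

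Replicate numbers are shared between the groups, and the numbers alone do not say whether same-numbered cultures were paired. Deviations of same-numbered arrays correlated at 0.06, -0.08 and -0.13. With 3 arrays a group these values cannot settle whether there was a pairing. With the replicate block 0 features, 0 members and 0 related features passed, with 4212 features and 3 members at an unadjusted p under 0.05 in limma.

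Each of the 3 SPINT1 features and TMPRSS2 stayed below 0 in all 15 alternatives, but much of this was fixed in advance. The value table, leaving out dim features, trend and robust variance, and the replicate block gave the main difference unchanged. For TMPRSS2 and SPINT1 NM_001032367 the groups did not overlap, so the sign could not turn without single arrays. For the other SPINT1 features it could, and those fits gave -0.91 to -0.48 (BC004140) and -1.02 to -0.40 (NM_181642). Of the dim members, subtracting the random-probe level widened 10 differences beyond the spread between arrays, for instance ST14 from 0.48 to 2.37, because readings near that level fall to the floor. Signal over background thus limits every statement on ST14, HPN, PRSS8, TMPRSS3, TMPRSS4 and the 2 dim TMPRSS6 features.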
